A study of Mus musculus with 3 samples.

Results

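The genes described here are 10 transcription factor genes of the immediate-early class, measured in primary mouse peritoneal macrophages: Fos, Fosb and Fosl2 of the Fos family, Jun, Junb and Jund of the Jun family, Egr1, Egr2 and Egr3 of the early growth response family, and Atf3. They were chosen by symbol and are 10 of the 20574 gene symbols in each deposited table. RNA was sequenced from 3 conditions with 1 library each. Macrophages were given apoptotic cells, 5 to each macrophage, for 5 h, were given LPS at 100 ng/ml for 5 h, or were left untreated. LPS is a lipid of the bacterial outer membrane that is sensed by Toll-like receptor 4. In every library the macrophages were grown in DMEM and labelled WT. The labels give no strain, age or number of animals, no source for the apoptotic cells, and no time in culture for the untreated cells. Leftover dying cells were rinsed off before the RNA was extracted. With 1 library per condition there is no spread between replicates, so every difference is between libraries and carries no p-value.

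Immediate-early genes are transcribed within minutes of a signal at the cell surface, without new protein synthesis, and their mRNAs are usually short-lived. Fos and Jun proteins pair through leucine zippers to form AP-1, which binds DNA as a dimer, and Atf3 belongs to the same zipper class and often acts as a repressor. Egr proteins bind GC-rich sites through zinc fingers. In macrophages these genes respond to Toll-like receptor ligands, growth factors, adhesion and handling. A sample taken hours after a stimulus can therefore miss a first wave of transcription.

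The stretches just before a RefSeq transcription start are shown for 4 genes. Among those with a matched window, their levels differed most between libraries. Egr2 was lower in both treated libraries, and Fos was highest with apoptotic cells. Fosl2 and Junb were higher with LPS than with apoptotic cells and were listed at 0 untreated. Each stretch is 250 bases, 5′ to 3′ on the gene's own strand, from RefSeq on GRCm38.p6, the assembly that mm10 names. RefSeq windows were matched for 8 of the 10 genes, and Egr1 and Egr3 are only named. The GENCODE M21 annotation starts Egr2 at 67535475 and Fosl2 at 32135801, upstream of their windows. By that annotation these windows lie inside the genes. It starts Jund at 70698949, downstream of the Jund window, which ends at 70697738. The Egr2 window is chr10:67537619-67537868 on the plus strand, that of Fos chr12:85473640-85473889 on the plus strand, that of Fosl2 chr5:32136222-32136471 on the plus strand and that of Junb chr8:84978749-84978998 on the minus strand. Capitals mark the CArG box, which serum response factor binds, the letters TGACG, the core of the cyclic AMP response element, and the Egr site GCGNGGGCG, on either strand.
Egr2: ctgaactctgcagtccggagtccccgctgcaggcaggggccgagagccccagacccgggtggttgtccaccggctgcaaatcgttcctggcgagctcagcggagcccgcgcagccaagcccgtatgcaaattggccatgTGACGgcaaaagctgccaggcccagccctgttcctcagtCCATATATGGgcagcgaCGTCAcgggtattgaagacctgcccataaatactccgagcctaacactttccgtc
Fos: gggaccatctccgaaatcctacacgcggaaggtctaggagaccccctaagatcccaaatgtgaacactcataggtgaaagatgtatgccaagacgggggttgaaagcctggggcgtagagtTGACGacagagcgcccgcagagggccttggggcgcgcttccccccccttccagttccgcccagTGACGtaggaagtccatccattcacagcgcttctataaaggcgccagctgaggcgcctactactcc
Fosl2: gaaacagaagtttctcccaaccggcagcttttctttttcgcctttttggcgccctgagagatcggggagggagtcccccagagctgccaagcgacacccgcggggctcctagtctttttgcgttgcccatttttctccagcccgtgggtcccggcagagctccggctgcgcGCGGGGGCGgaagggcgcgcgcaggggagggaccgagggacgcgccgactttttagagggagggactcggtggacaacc
Junb: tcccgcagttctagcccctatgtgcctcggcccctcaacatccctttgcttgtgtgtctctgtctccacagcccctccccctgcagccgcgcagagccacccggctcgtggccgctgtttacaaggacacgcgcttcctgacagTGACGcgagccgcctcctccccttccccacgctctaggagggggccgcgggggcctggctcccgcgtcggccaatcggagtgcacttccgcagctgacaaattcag

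In these letters the Egr2 window holds a CArG box from 72 to 63 bases before the start, between a TGACG core from 111 to 107 bases and another, on the other strand, from 55 to 51 bases before it. The Fos window has cores at 129 to 125 and 66 to 62 bases before the start. The Fosl2 window has an Egr site at 79 to 71 bases, and the Junb window a core at 106 to 102 bases before the start. Of the 8 windows, 1 held a CArG box, against 1.47% of 32851 RefSeq windows of the same length. The core stood in 5 of 8 windows and in 17.8% of all windows, and the Egr site in 2 of 8 and in 4.70% of all. The full response element TGACGTCA and the AP-1 site TGANTCA stood in 0 of the 8 windows, and in 1.55% and 6.75% of all. The core is part of the full element, and no other pair of these motifs overlaps in the windows shown. A match is a run of letters and was not tested as a binding site. Bases farther upstream, and Egr1 and Egr3, were not scanned, so a motif missing here may lie outside the windows.

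Values are FPKM, fragments per kilobase of transcript per 1000000 mapped fragments, so levels can be set beside each other between genes. Summed over all genes they came to 197222 after apoptotic cells, 200224 after LPS and 199881 untreated. The smallest steps between values imply about 6.25 reads per FPKM on a 2 kb transcript with apoptotic cells, 5.80 with LPS and 6.67 untreated. Many genes were listed at exactly 0 in 1 library while well above 0 in the others. Where both other libraries gave a gene a value above 0, the share listed at 0 was 18.6% with apoptotic cells, 21.9% with LPS and 38.6% untreated. A listed 0 is therefore reported as listed and is not read as absence. Of the 10 genes, 6 were above 0 in all 3 libraries and 4 were listed at 0 in at least 1, namely Fosb, Fosl2, Junb and Egr3. The mean over libraries reached 1 FPKM for 9 genes and missed it for Fosb.

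**Figure D1:**
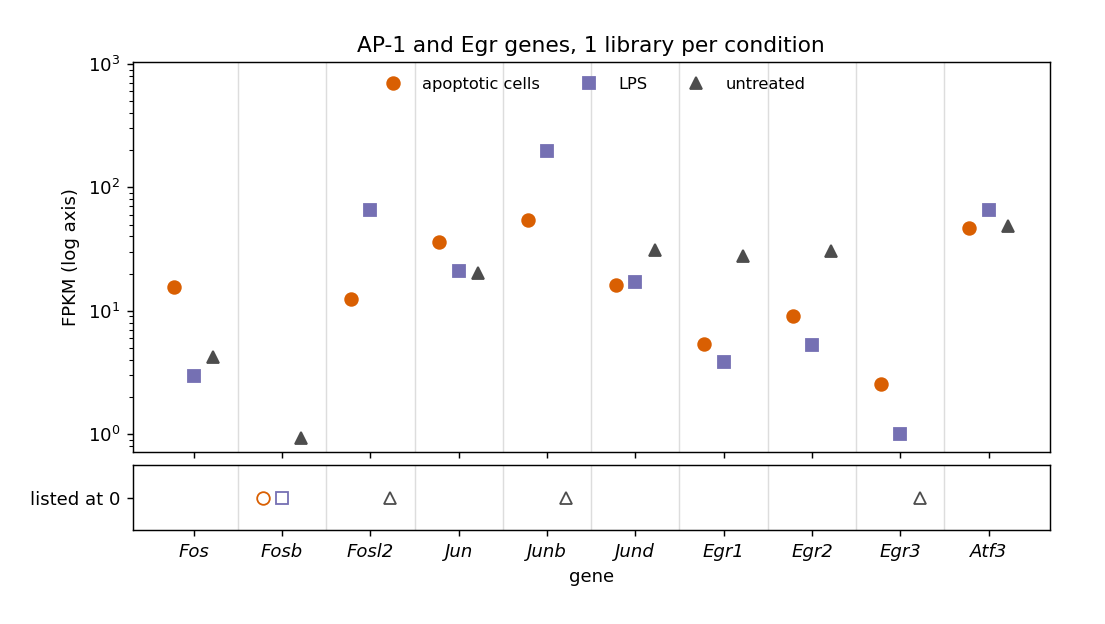
FPKM of the 10 genes (log axis) in the apoptotic-cell, LPS and untreated libraries, 1 library each, with values listed at 0 in the lower strip. Egr1 and Egr2 were lower in both treated libraries than untreated, and Fos was highest with apoptotic cells at 15.5 FPKM. Junb and Fosl2 were higher with LPS, at 197 and 65.2 FPKM, than with apoptotic cells, and were listed at 0 untreated.

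Fos, the founding partner of Jun in AP-1, was listed at 15.5 FPKM after apoptotic cells, 2.99 FPKM after LPS and 4.21 FPKM untreated. The apoptotic-cell library stood above the others, which lay close to each other. These values correspond to about 91, 17 and 26 reads. The log2 ratio of apoptotic cells over untreated was 1.88, with a 95% counting interval of 1.22 to 2.55, and that of apoptotic cells over LPS was 2.37 (1.61 to 3.21). LPS over untreated gave -0.50 (-1.48 to 0.43), an interval that spans no difference. Such intervals are exact binomial intervals on estimated reads and cover counting error only, without the variation between cultures. Fos spans 85473890 to 85477273 on chromosome 12 in mm10 and is spliced from 4 exons.

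Fosl2, which encodes the AP-1 subunit Fra-2, was listed at 12.6 FPKM after apoptotic cells, 65.2 FPKM after LPS and 0 untreated. The LPS library was the higher of the treated pair, by 5.19-fold. Of the 1246 genes at or above 12.6 FPKM in both treated libraries, 34.3% were at 0 in the untreated one, so its 0 there is a common event at this level. Fosb, a close relative of Fos, was listed at 0.940 FPKM untreated, about 11 reads, and at 0 in both treated libraries. Of the 1305 genes within 2-fold of that untreated value, 17.9% were likewise listed at 0 in both treated libraries. No ratio was formed for Fosb.

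Jun, the most studied AP-1 subunit, was listed at 35.8 FPKM after apoptotic cells, 20.9 FPKM after LPS and 20.3 FPKM untreated. The apoptotic-cell library was 1.76-fold above the untreated library, and the LPS and untreated libraries were level on the deposited scale. The counting interval of the log2 ratio of apoptotic cells over untreated was 0.56 to 1.08, and that of LPS over untreated was -0.26 to 0.34. Junb, whose product forms AP-1 dimers with weaker transforming activity than those of Jun, was listed at 54.4 FPKM after apoptotic cells, 197 FPKM after LPS and 0 untreated. In the LPS library it lay at percentile 98.0 of the genes above 0, the highest listed value of the 10 genes in any library. Of the 337 genes at or above 54.4 FPKM in both treated libraries, 24.9% were listed at 0 untreated.

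Jund, the Jun gene usually expressed in resting cells, ran the other way. It was listed at 16.0 FPKM after apoptotic cells, 17.2 FPKM after LPS and 30.8 FPKM untreated. Both treated libraries were lower than the untreated one, by 1.92-fold with apoptotic cells and 1.79-fold with LPS. Median-of-ratios scaling moved the log2 ratio of FPKM + 1 for LPS over untreated to -0.21 for Jund, against -0.81 as listed, and to 0.64 for Jun, against 0.04 as listed. In GENCODE M21 the antisense genes Junos and Gm11175 overlap Jun and Jund, and Prdx2, a peroxide-reducing enzyme gene, overlaps Junb on the opposite strand. Prdx2 was listed at 0 after apoptotic cells, 24.1 FPKM after LPS and 0 untreated. The strandedness of the libraries is not given in the sources used here, so reads of such pairs may not be separated.

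Egr1, the best known Egr gene, differed most from the untreated library among the 6 genes above 0 in all 3 libraries. It was listed at 5.40 FPKM after apoptotic cells, 3.84 FPKM after LPS and 27.7 FPKM untreated. It was lower in both treated libraries, by 5.13-fold and 7.21-fold, with about 72 and 48 reads against 388 untreated. The counting intervals of the log2 ratios over untreated were -2.74 to -1.99 for apoptotic cells and -3.32 to -2.42 for LPS. Between the treated libraries the interval was -0.05 to 1.06, so a difference was not detectable at this depth.

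Egr2, which in mice is known for its part in the response of macrophages to interleukin 4, showed the same order. It was listed at 9.14 FPKM after apoptotic cells, 5.27 FPKM after LPS and 30.7 FPKM untreated, 3.36-fold and 5.83-fold below untreated. Apoptotic cells over LPS gave a log2 ratio of 0.79 (0.23 to 1.36), an interval that does not cover the scaling between libraries. Median-of-ratios scaling moved the log2 ratio of FPKM + 1 for this pair to 0.34, against 0.69 as listed. Egr2 spans 67535475 to 67542188 on chromosome 10 in mm10 by GENCODE M21, which starts the gene upstream of the RefSeq start used for the window above. Egr3, a family member best known from lymphocytes and muscle, was listed at 2.57 FPKM after apoptotic cells, 1.00 FPKM after LPS and 0 untreated. About 30 and 11 reads stand behind the treated values, and their log2 ratio was 1.36 (0.33 to 2.51). Of the 4045 genes at or above 1.00 FPKM in both treated libraries, 41.7% were listed at 0 untreated, so the order of Egr3 against its relatives cannot be read from that 0.

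Atf3, a feedback repressor of Toll-like receptor target genes in mouse macrophages, was listed at 46.4 FPKM after apoptotic cells, 65.1 FPKM after LPS and 48.9 FPKM untreated. It was among the more abundant transcripts in every library, at percentiles 91.6, 93.8 and 91.9. On the deposited scale the widest gap was 1.40-fold, between apoptotic cells and LPS. The log2 ratio over untreated was -0.07 (-0.33 to 0.17) with apoptotic cells and 0.41 (0.18 to 0.64) with LPS. Median-of-ratios scaling moved the log2 ratio of FPKM + 1 for LPS over untreated to 1.02, against 0.41 as listed.

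Set in order of level, Junb, Atf3 and Jun led with apoptotic cells, and Junb led with LPS ahead of Fosl2 and Atf3. Among the genes above 0 untreated, Atf3 led, followed by Jund and Egr2. Junb, Fosl2 and Egr3 were listed at 0 there and have no place in that order. Fosl2 and Atf3 were level with LPS, at 65.2 and 65.1 FPKM, as were Jund and Egr2 untreated, at 30.8 and 30.7 FPKM. Fos and Jund were close to each other with apoptotic cells, at 15.5 and 16.0 FPKM. With 1 library each, the order of such neighbours is not resolved.

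The first comparison asked how macrophages that had met apoptotic cells differed from those left alone. For counts across genes, ratios were taken as log2((FPKM + 1) / (FPKM + 1)), which understates differences of low genes, and only where both libraries were above 0 and the mean reached 1 FPKM. Among the 6 genes that qualified, Fos was at least 2-fold higher with apoptotic cells (1.66), Egr1 (-2.16) and Egr2 (-1.65) were at least 2-fold lower, and 3 differed less. Of all 3369 genes compared, 12.4% passed 2-fold upwards and 16.4% downwards. The 6 genes had a median of -0.49, against -0.13 over all genes. Relative to that median, Fos stood at 1.79 and Egr1 at -2.03. With median-of-ratios scaling 539 genes were higher and 416 lower, in place of 418 and 554, the 3 genes kept their calls, and Atf3 stood at 0.14 in place of -0.07, on the other side of 0.

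The second comparison set LPS, as an inflammatory stimulus, against no treatment. Egr1 (-2.57) and Egr2 (-2.34) were at least 2-fold lower, 0 of the 6 were at least 2-fold higher, and Fos, Jun, Jund and Atf3 differed by less than 2-fold. Of 3421 genes compared, 8.51% passed 2-fold upwards and 26.2% downwards, so lower calls were common in this library pair. The 6 genes had a median of -0.60 against -0.40 over all genes. Relative to the median over all genes Egr1 stood at -2.16, Egr2 at -1.93, Jund at -0.40, Fos at 0.02, Jun at 0.45 and Atf3 at 0.81. With median-of-ratios scaling 650 genes were higher and 437 lower, in place of 291 and 896. Under it Fos stood at 0.10 and so on the other side of 0, and Atf3 reached 1.02. This comparison and the first share the untreated library, so the low values of Egr1 and Egr2 in both rest on the same untreated values of 27.7 and 30.7 FPKM.

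The third comparison set apoptotic cells against LPS, where 9 genes qualified. Fos was at least 2-fold higher with apoptotic cells (2.05), and Fosl2 (-2.29) and Junb (-1.84) were at least 2-fold lower. The other 6 lay between -0.48 for Atf3 and 0.84 for Egr3. Of 4599 genes compared, 15.7% passed 2-fold upwards and 5.54% downwards. Fosl2 lay at percentile 1.37 and Junb at percentile 2.41 of all ratios, and Fos at percentile 97.1. The 9 genes had a median of 0.40, against 0.32 over all genes. With median-of-ratios scaling 417 genes were higher and 449 lower, in place of 722 and 255, and these 3 genes kept their calls.

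**Figure D2:**
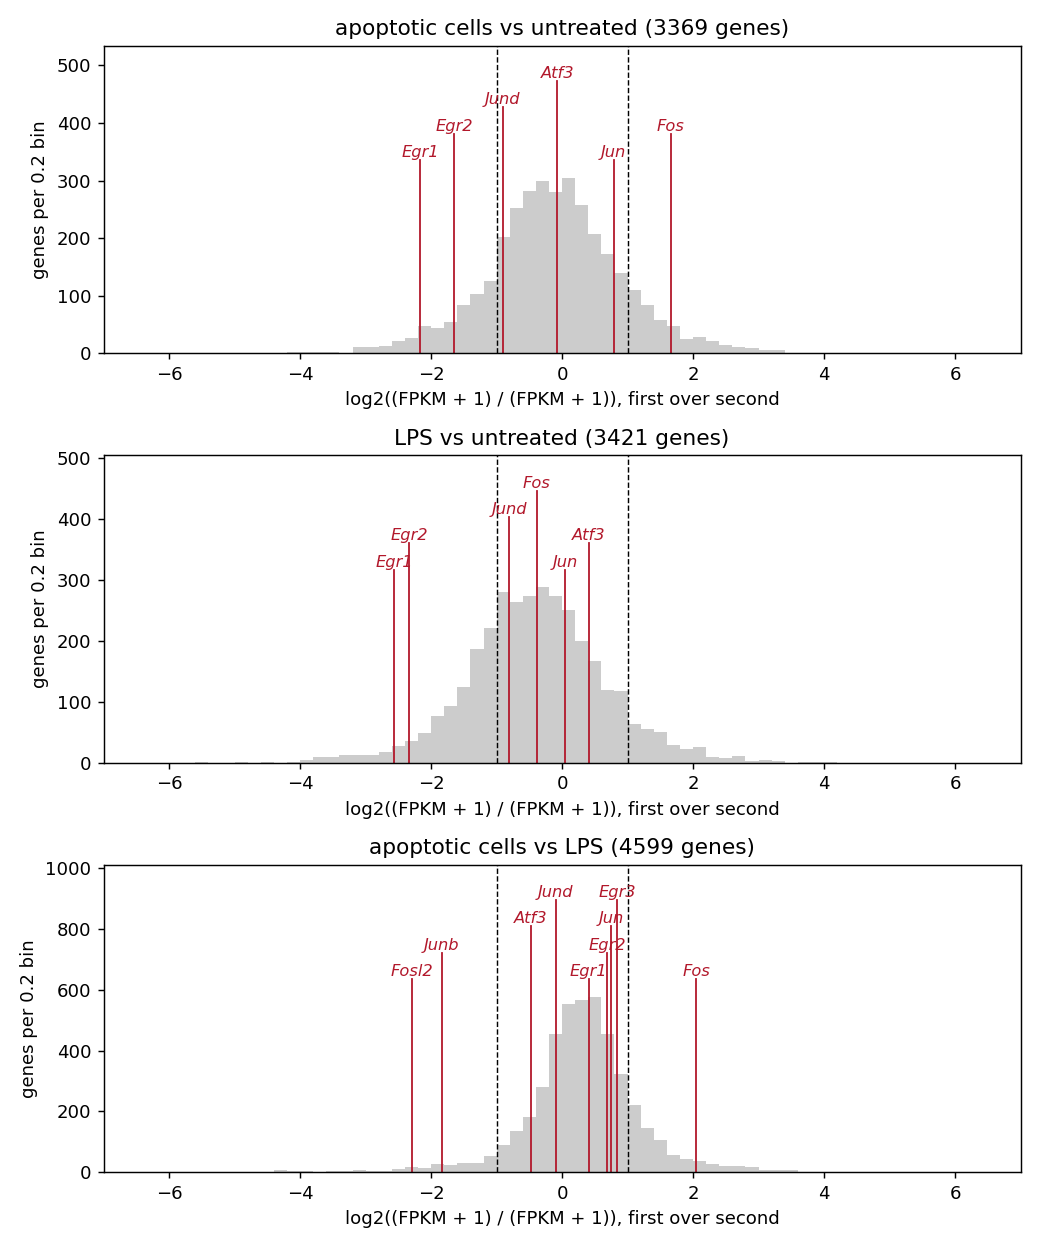
Histograms of the log2 ratio of FPKM + 1 in bins of 0.2 for all genes compared, in the order apoptotic cells over untreated, LPS over untreated and apoptotic cells over LPS, with the AP-1 and Egr genes marked by red lines and 2-fold by dashed lines. Egr1 and Egr2 lie in the lower tail of both comparisons with the untreated library, and Fos lies on the opposite side from Fosl2 and Junb between the treated libraries.

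Ratios between genes within a library do not depend on how libraries are scaled to each other. Fos over Egr1 was 2.86 after apoptotic cells, 0.778 after LPS and 0.152 untreated. Egr1 was thus the higher of these genes in the untreated library and Fos the higher with apoptotic cells. Jun over Egr1 was 6.62 after apoptotic cells, 5.45 after LPS and 0.733 untreated, so the treated libraries lay close to each other and apart from the untreated one. Jun over Jund was 2.23, 1.22 and 0.658 in the same order. Egr2 over Egr1 varied least, at 1.69, 1.37 and 1.11.

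The make-up of each family could be given where all its genes were above 0, which left out the untreated library for the Jun and Egr families. Junb made up 51.2% of the summed FPKM of the Jun genes with apoptotic cells and 83.8% with LPS. Jun made up 33.7% and 8.91%, and Jund 15.1% and 7.33%. Within the Egr family Egr2 held 53.4% with apoptotic cells and 52.1% with LPS. The balance of Fos and Fosl2 differed most, since Fosl2 over Fos was 0.813 with apoptotic cells and 21.8 with LPS.

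**Figure D3:**
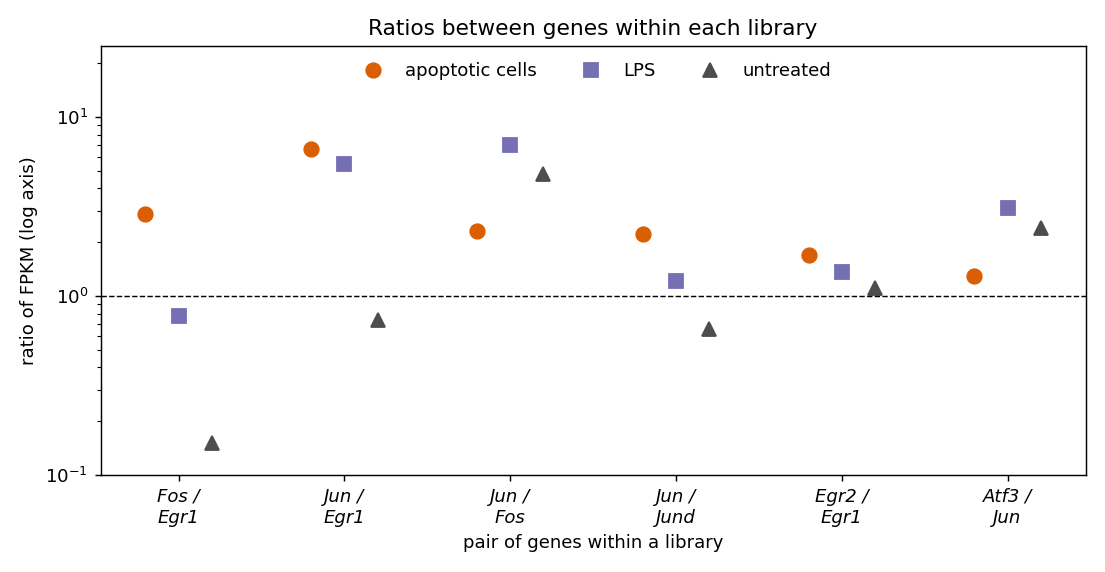
Ratios of FPKM between pairs of genes within each library (log axis; the dashed line marks equal FPKM) for apoptotic cells, LPS and untreated. Fos over Egr1 spans 2.86 with apoptotic cells to 0.152 untreated, whereas Egr2 over Egr1 stays between 1.69 and 1.11.

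Genes with the most similar pattern were taken as the 3 at the smallest distance in the pair of log2 ratios over untreated, among 2891 genes above 0 in all 3 libraries. The nearest to Egr1 were Tpsb2, a mast cell tryptase gene, Tnfrsf14 and Kit, the stem cell factor receptor gene of mast cells, at distances of 0.08, 0.11 and 0.12 log2 units. The nearest to Egr2 were Plcg2, a phospholipase gene of immune receptor signalling, Abhd6 and Ero1lb. Copz2, Plscr4 and Lmo2 lay nearest to Fos. For Egr1, Egr2 and Fos, 9, 10 and 6 genes lay within 0.25 log2 units. For Jun, Jund and Atf3 the counts were 101, 92 and 51, so no gene stands out there; Spg21, Tmx1 and Vdac1 were nearest to Jun, Zfp593, Gbas and Zfp213 to Jund, and Timm8a1, Kctd10 and Mrpl54 to Atf3. With 3 libraries such likeness is a description.

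Other zipper genes of the wider AP-1 class were taken from a list of 11, of which 9 were in the tables. Maf, a large zipper protein gene expressed in macrophages and T helper cells, was highest with apoptotic cells, at 8.45 FPKM after apoptotic cells, 1.69 FPKM after LPS and 1.67 FPKM untreated. Its log2 ratio over untreated was 1.82 with apoptotic cells and 0.01 with LPS. Batf, which pairs with Jun proteins, was highest with LPS, at 5.34 FPKM after apoptotic cells, 28.5 FPKM after LPS and 15.7 FPKM untreated. Against untreated, apoptotic cells had 1 of 2 comparable genes at least 2-fold higher (Maf) and 1 lower (Batf), and LPS had 0 of 3 beyond 2-fold. The shares of all genes were 12.4% higher and 16.4% lower with apoptotic cells, and 8.51% and 26.2% with LPS. Jdp2, a repressor of AP-1, was listed at 0 after apoptotic cells, 13.9 FPKM after LPS and 15.9 FPKM untreated.

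Other immediate-early genes came from a list of 19, of which 18 were in the tables. With apoptotic cells 7 of 8 comparable genes were at least 2-fold lower than untreated and 0 higher, with a median of -1.81 against -0.13 over all genes. With LPS 4 of 9 were at least 2-fold lower and 1 higher, with a median of -0.89 against -0.40. The shares of all genes were 16.4% lower and 12.4% higher with apoptotic cells, and 26.2% and 8.51% with LPS. Btg2, an antiproliferative gene, was listed at 26.2 FPKM after apoptotic cells, 27.4 FPKM after LPS and 113 FPKM untreated, an order like that of Egr1. Klf10, a zinc finger gene responsive to transforming growth factor beta, was listed at 5.70 FPKM after apoptotic cells, 0.838 FPKM after LPS and 19.8 FPKM untreated. Cyr61, a secreted matrix protein gene, was listed at 0.197 FPKM after apoptotic cells, 0.610 FPKM after LPS and 5.99 FPKM untreated. Klf2, a factor that restrains inflammatory genes, was lowest with LPS, at 25.2 FPKM after apoptotic cells, 5.87 FPKM after LPS and 39.4 FPKM untreated. Ier3 departed from these and was highest with LPS, at 36.0 FPKM after apoptotic cells, 845 FPKM after LPS and 123 FPKM untreated. Zfp36, whose product binds AU-rich mRNAs and speeds their decay, was listed at 261 FPKM after apoptotic cells, 155 FPKM after LPS and 0 untreated. Myc, Klf6 and Nr4a3 were also listed at 0 untreated and above 0 in both treated libraries.

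**Figure D4:**
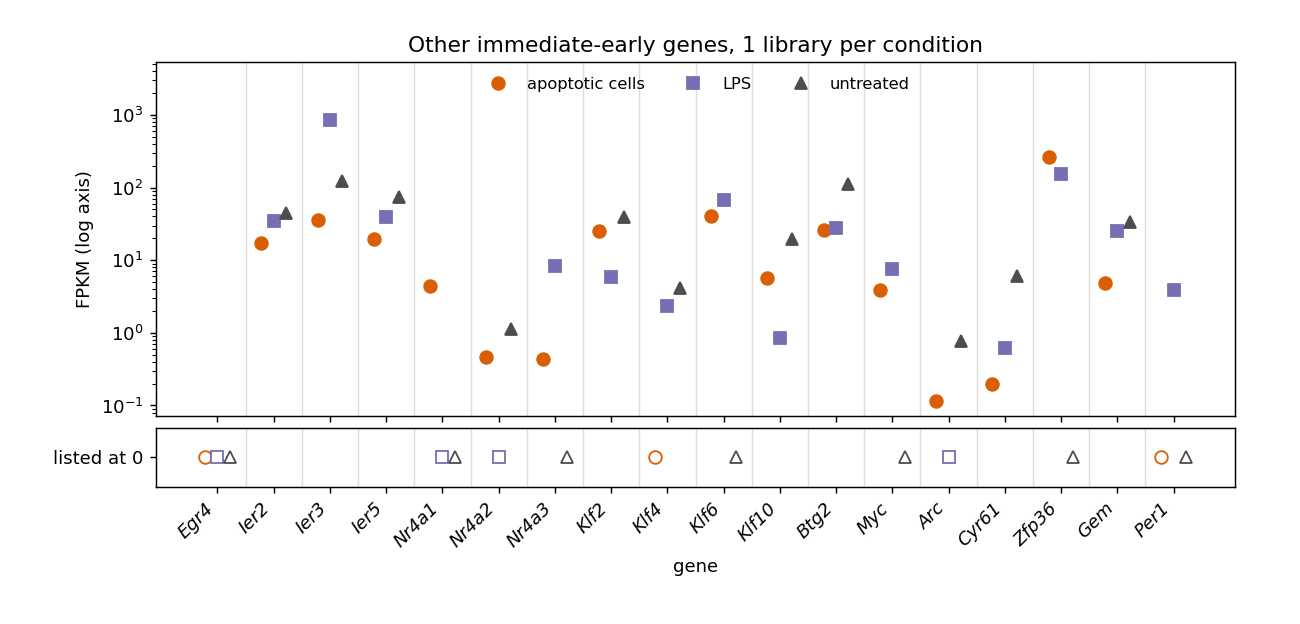
FPKM of 18 other immediate-early genes (log axis) in the apoptotic-cell, LPS and untreated libraries, 1 library each, with values listed at 0 in the lower strip. Btg2, Klf10 and Cyr61 were highest untreated, and Ier3 was highest with LPS at 845 FPKM.

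Few of the factors acting on the Fos and Egr genes could be compared with untreated. Srf, the serum response factor gene, was listed at 7.61 FPKM after apoptotic cells, 6.96 FPKM after LPS and 11.6 FPKM untreated. Of this list of 10, 7 were in the tables, and 0 of 2 comparable genes passed 2-fold with apoptotic cells and 0 of 1 with LPS. A 0 in just 1 library of the pair kept out 4 genes with apoptotic cells and 5 with LPS. Among all genes compared, 12.4% passed 2-fold upwards and 16.4% downwards with apoptotic cells, and 8.51% and 26.2% with LPS. Counts this small therefore say little about the list. Nab2, a corepressor of Egr proteins, was listed at 17.8 FPKM untreated and at 0 in both treated libraries, and its relative Nab1 at 23.4 FPKM after apoptotic cells, 37.1 FPKM after LPS and 0 untreated. Of 18 genes of the MAP kinase cascades, which carry signals to these promoters, 11 were in the tables. Mapk3, which encodes the kinase ERK1, was listed at 158 FPKM after apoptotic cells, 66.3 FPKM after LPS and 48.4 FPKM untreated (1.69 and 0.45 over untreated). Map3k8, a kinase gene between Toll-like receptors and ERK, was listed at 0.505 FPKM after apoptotic cells, 0 after LPS and 7.61 FPKM untreated. These were the 2 of 6 comparable genes past 2-fold with apoptotic cells, and LPS had 0 of 4. Of 11 genes for AU-rich mRNA binding and decay, 7 were in the tables. With LPS 2 of 2 comparable genes, Zfp36l1 and Zfp36l2, were at least 2-fold lower than untreated, and with apoptotic cells 0 of 1 passed 2-fold. Zfp36l1 was listed at 0 after apoptotic cells, 14.7 FPKM after LPS and 107 FPKM untreated. Zfp36l2 was listed at 70.5 FPKM after apoptotic cells, 22.3 FPKM after LPS and 51.7 FPKM untreated.

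Genes with described AP-1 or Egr sites came from a list of 17, of which 12 were in the tables. With LPS 5 of 6 comparable genes were at least 2-fold higher than untreated and 0 lower, with a median of 1.82 against -0.40 over all genes. That count leaves out genes listed at 0 in either library: Ptgs2, Ccl2 and Timp1 were above 0 untreated and listed at 0 with LPS, and F3 and Plau were the reverse. With apoptotic cells 2 of 7 passed 2-fold upwards and 3 downwards, with a median of 0.33 against -0.13 over all genes. Among all genes compared, 8.51% passed upwards and 26.2% downwards with LPS, and 12.4% and 16.4% with apoptotic cells. Ptgs2, the inducible cyclooxygenase gene, was listed at 3.67 FPKM after apoptotic cells, 0 after LPS and 218 FPKM untreated. Ccl2, a monocyte chemokine gene, was listed at 11.2 FPKM after apoptotic cells, 0 after LPS and 107 FPKM untreated. Timp1, a metalloproteinase inhibitor gene, was listed at 30.6 FPKM untreated and at 0 in both treated libraries. Among genes above 0 in all 3 libraries, Spp1, the osteopontin gene, was listed at 446 FPKM after apoptotic cells, 154 FPKM after LPS and 63.6 FPKM untreated. Mmp13, a collagenase gene, was listed at 58.1 FPKM after apoptotic cells, 190 FPKM after LPS and 35.4 FPKM untreated, and Mmp9, a gelatinase gene, at 5.73 FPKM after apoptotic cells, 7.22 FPKM after LPS and 2.15 FPKM untreated. Tnf, an inflammatory cytokine gene, was lower after apoptotic cells and higher after LPS than untreated, at 1.30, 264 and 54.6 FPKM. F3, the tissue factor gene that starts coagulation, was listed at 1.32 FPKM after apoptotic cells, 65.3 FPKM after LPS and 0 untreated. The list is wide and its genes answer to many other factors.

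Markers of some other peritoneal cells were lower in both treated libraries, like Egr1 and Egr2. Neutrophil markers summed higher in both, mostly through S100a8 and Lcn2. In bulk RNA, fewer cells of a type and less RNA per cell cannot be told apart. Among all genes compared, 16.4% were at least 2-fold lower than untreated with apoptotic cells and 26.2% with LPS. Mast cell markers, 8 of 8 in the tables, summed to 14.0 FPKM after apoptotic cells, 10.4 FPKM after LPS and 95.7 FPKM untreated, and 5 of 5 comparable genes with apoptotic cells and 6 of 6 with LPS were at least 2-fold lower. Ms4a2, a chain of the mast cell IgE receptor, was listed at 0 in all 3 libraries. B cell markers, 10 of 10 in the tables, summed to 256 FPKM after apoptotic cells, 173 FPKM after LPS and 863 FPKM untreated. Of these, 6 were listed at 0 untreated, Cd79a and Cd79b among them, and 4 of 4 comparable genes with apoptotic cells and 3 of 3 with LPS were at least 2-fold lower. Mesothelial and fibroblast markers, 7 of 7, summed to 2.15, 1.13 and 26.5 FPKM in the same order, with Krt19 at 0 in both treated libraries. Dendritic cell markers, 4 of 5 in the tables, summed to 0.215, 1.16 and 7.65 FPKM. The untreated B cell sum came mostly from Ly6d and Cxcr5, at 563 and 214 FPKM, and with 6 genes at 0 it is not a level to compare with. The sums of the mast cell, mesothelial and fibroblast, and dendritic cell lists, like Egr1 and Egr2, were lower in both treated libraries than untreated. The part of these cells and of B cells in the Egr1 and Egr2 values was not tested.

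T cell and thymocyte markers, 12 of 12 in the tables, summed to 96.4 FPKM after apoptotic cells, 3.03 FPKM after LPS and 31.0 FPKM untreated, but 8 of the 12 were listed at 0 untreated, so that sum is not a level to compare with. Among genes above 0 in both libraries, 0 of 3 passed 2-fold with apoptotic cells against untreated, with a median of -0.23, and 5 of 5 were at least 2-fold higher with apoptotic cells than with LPS. The share of all genes that much higher with apoptotic cells than with LPS was 15.7%. Cd3e and Cd3d, chains of the T cell receptor complex, had 7.10 and 8.25 FPKM after apoptotic cells, against a listed 0 after LPS and untreated, and Cd3g was listed at 10.6 FPKM after apoptotic cells, 0 after LPS and 12.6 FPKM untreated. The part of such RNA in the Fos and Jun values was not tested. Neutrophil markers, 9 of 10 in the tables, summed to 325 FPKM after apoptotic cells, 496 FPKM after LPS and 118 FPKM untreated. In the same order, these sums came mostly from S100a8, at 116, 222 and 48.1 FPKM, and Lcn2, at 187, 272 and 64.1 FPKM. Of the 9 genes, 1, 5 and 3 were listed at 0, so the sums describe few genes. With apoptotic cells 3 of 5 comparable genes were at least 2-fold above untreated, and with LPS 2 of 4 were above and 1 below. The part of neutrophil RNA in the Fosl2 and Junb values was not tested either. Of 12 macrophage markers 7 were in the tables, and 3 of 4 comparable genes with apoptotic cells and 2 of 3 with LPS were at least 2-fold higher than untreated, with 0 lower. For the neutrophil and macrophage lists, the shares of all genes at least 2-fold higher were 12.4% with apoptotic cells and 8.51% with LPS. Macrophage marker sums are given next. Their sums of 1107, 129 and 537 FPKM include 3, 3 and 1 genes listed at 0. Not comparable for its listed 0 values, C1qb stood at 130 FPKM untreated and at 0 in both treated libraries. Gata6 was above 0 only with LPS, at 8.81 FPKM. Cxcl13, a chemokine gene of peritoneal macrophages, was listed at 364 FPKM after apoptotic cells, 112 FPKM after LPS and 44.7 FPKM untreated. Csf1r, the receptor gene that defines the lineage, was listed at 185 FPKM after apoptotic cells, 0 after LPS and 56.3 FPKM untreated, and Cd14 at 555, 0 and 303 FPKM. Among heat shock genes, which also answer to handling, Dnajb1 was level at 16.4, 15.3 and 17.1 FPKM. Hspa1a and Hspa1b, near-identical copies whose reads may not be separated, stood at 1.62, 1.20 and 4.35 FPKM and at 2.001, 1.87 and 2.49 FPKM.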

How the data were processed

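RNA-seq was done on 3 libraries, 1 each for apoptotic cells, LPS and no treatment, and groups were taken from the sample labels. The deposited values were taken as FPKM: the authors' headers state none, and per the submitters' processing notes reads were handled with TopHat2 2.1.0, Cuffdiff, cutadapt 1.14 and Cufflinks 2.2.1 on build mm10. Options, annotation and strandedness: not given in the sources used here.

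Log2 ratios of FPKM + 1 were formed for genes above 0 in both libraries with a mean of at least 1 FPKM, and a difference of at least 2-fold on that scale was counted. No test was possible. Depth was estimated from the smallest steps of values of genes with 1 GENCODE M21 transcript of 800 to 6000 bases. Only 37.2% to 39.9% of those values lay within 0.1 of a whole read, so reads were not recovered, no count test was run and read numbers are approximate. Counting intervals (95%, exact binomial, ratios of FPKM without the added 1) rest on these estimates and on the longest principal transcript. The ratios and the fold threshold were tried on simulated data with a fixed depth. The depth estimate, the read numbers and the counting intervals were not tried in this way. Python 3.11.15, pandas 2.3.3 and SciPy 1.17.1 were used.

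The genes, lists and alternatives were chosen with earlier results of these data known. Genes named beside the 10 are, from each list, up to 4 with the largest ratios over untreated among genes above 0 in all 3 libraries, genes listed at 0 in at least 1 library where the text counts them, and the 3 nearest in pattern. Btg2 and some of the genes listed at 0 were named after their values were seen. Some genes of the lists are not reported here and were left out of the lists' counts and sums.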

Additional observations from a re-analysis of the deposited data

How the results depend on the processing

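The 2-fold calls of Egr1 and Egr2 against untreated, lower in both treated libraries, kept their direction under pseudocounts of 0.1 and 5 FPKM, no filter or a mean of at least 5 FPKM, 3 other scalings and a listed 0 taken as a value. Among the counts given for the 10 genes, 50 values under the alternatives were within 1.5 times of those reported and 10 were not. For apoptotic cells over LPS, 2 genes were higher with a pseudocount of 0.1 FPKM or with each library rescaled to a sum of 1000000, in place of 1. At 1.5-fold, 2 genes were higher with apoptotic cells than untreated and 4 higher than with LPS, in place of 1 each. At 4-fold, 0 were higher and 1 lower than untreated, in place of 1 and 2, and 1 lower than with LPS, in place of 2. Median-of-ratios scaling made 1 gene, Atf3, higher with LPS than untreated, in place of 0. A listed 0 taken as a value gave 4 higher with apoptotic cells and 2 with LPS, in place of 1 and 0, through Fosl2, Junb and, with apoptotic cells, Egr3. No called gene changed sign under these alternatives.

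Over all genes, the counts for apoptotic cells over untreated were 418 higher and 554 lower. They became 2682 and 1378 with a listed 0 as a value, 235 and 228 with a pseudocount of 5 FPKM, 615 and 988 rescaled to a common sum, 746 and 1021 at 1.5-fold and 96 and 143 at 4-fold. A mean of at least 5 FPKM left 268 lower. For LPS over untreated, 291 and 896 became 2605 and 1674, 164 and 321, 424 and 1418, 543 and 1461, and 68 and 194 under the same settings, with 429 lower at 5 FPKM. Upper-quartile scaling gave 485 and 573. For apoptotic cells over LPS, 722 and 255 became 1741 and 1423, 278 and 155, 1262 and 390, 1537 and 496, and 148 and 90, and 398 and 163 at 5 FPKM. Upper-quartile scaling gave 453 and 394.

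With 1 library per condition, leaving out a library was not run. No paired analysis was possible because each condition has 1 library.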
